A study of Mus musculus with 18 samples.

Results

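The 10 integrin chain genes described here were chosen by name, of 24391 genes listed in each of 2 tables of normalized counts: the alpha chains Itgal, Itgam, Itga4, Itgae, Itgav and Itga6, and the beta chains Itgb1, Itgb2, Itgb3 and Itgb7. All 10 had a row in both tables. They were measured by RNA sequencing of ribosome-depleted total RNA in 18 libraries of E2-10HA, a mouse hybridoma line described as mature T cells, so every value comes from 1 cell line. In the first experiment, 3 libraries came from cells with the pLKO.1 plasmid carrying a scramble hairpin and 3 from cells with a single hairpin against L3MBTL3, a chromatin protein, all under puromycin selection. In the second, cells depleted of RBPJ, the DNA-binding factor of the Notch pathway, received a pMY-Bio plasmid with blasticidin selection that carried no insert (empty vector), Flag-tagged mouse RBPJ WT, or Flag-tagged RBPJ F261A/A284V, with 4 libraries per group. How RBPJ was depleted was not given in the sources used here, and all 3 groups of that experiment carry it. The comparisons ask which genes differ when L3MBTL3 is targeted, and which differ when either form of RBPJ is put back.

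Integrins are cell surface adhesion receptors, each made of 1 alpha and 1 beta chain, and a chain is carried to the surface only with a partner. On T cells, LFA-1 (Itgal with Itgb2) binds ICAMs during migration and contact with antigen-presenting cells, and the alpha 4 chain pairs with Itgb1 or Itgb7 to bind VCAM-1, fibronectin and the gut addressin MAdCAM-1. Itgae pairs with Itgb7 and binds E-cadherin on epithelium, Itga6 pairs with Itgb1 and binds laminins, and Itgav with Itgb3 forms the vitronectin receptor. Itgam with Itgb2 forms Mac-1, a complement and fibrinogen receptor best known from myeloid cells.

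Recovered reads, the whole reads that the deposited values stand for, summed to 4882485 to 6129134 per library in the knockdown. They summed to 5923799 to 7921533 in rescue replicates 1 and 2 and to 3553505 to 4239479 in rescue replicates 3 and 4. Of 12 T cell markers, 11 passed the filter on low values in each table, and Cd5 stayed at or under 6.14 normalized counts in all 18 libraries. L3mbtl3 read 422 ± 61.8 normalized counts in the scramble libraries and 378 ± 13.8 in the libraries labelled L3MBTL3 shRNA (SD, n = 3 each; log2 fold change -0.15, limma adjusted p = 0.402). The lowest scramble library, at 352, lay below all 3 shRNA libraries (370 to 394), so this check did not separate the labels, and every direction below is that of the libraries labelled L3MBTL3 shRNA. Rbpj read 281 ± 32.1 with the empty vector, 752 ± 101 with RBPJ WT and 778 ± 125 with RBPJ F261A/A284V (SD, n = 3 each). In 3 pairs of rescue libraries the reads per gene were closer to each other than sampling noise would give: replicates 1 and 2 of the empty vector (chi-square over its degrees of freedom 0.859), replicates 1 and 2 of RBPJ WT (0.721) and replicates 3 and 4 of F261A/A284V (0.823). They differed by less than the noise of counting, so a pair entered the means as 1 sample, which makes n = 3 in every rescue group, although the limma fit kept all 12 libraries. Replicates 1 and 2 of the rescue also stood apart from replicates 3 and 4, so values are given within each pair of replicates and from a fit to the 9 merged samples with a term for that divide (the merged fit). The merged pair is replicates 1 and 2 for the empty vector and RBPJ WT but replicates 3 and 4 for F261A/A284V. Rescue means therefore weigh that divide differently between groups, and their order need not follow that of same-numbered libraries.

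Levels of different genes were compared over all 18 libraries as RPKM, computed here from the recovered reads of a gene, its exon length and the library's total. The exon length merges the exons of all annotated transcripts of a gene, so the order of genes depends on that choice. Itgb7 was the most abundant chain, with a lowest, median and highest level of 77.4, 97.8 and 114. Itgb2 followed at 55.3, 78.5 and 92.7, and Itgb1 at 51.8, 55.6 and 62.4. Each of these beta chains lay above the next in 18 of 18 libraries, and Itgb1 lay above every alpha chain. Itgal, the LFA-1 alpha chain, was the leading alpha chain at 25.1, 32.6 and 35.4. Itgb3 ranged from 14.7 to 37.8 with a median of 24.5, and lay below Itgal in 16 of 18 libraries, so these neighbours in the order were not separated in every library. Itgav (13.0 to 24.3, median 16.1) and Itga6 (9.79 to 15.3, median 12.7) came next, and Itgav lay above Itga6 in 17 of 18 libraries.

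The other 3 alpha chains were lower still, and no range of theirs reached that of Itga6. Itgae had a median of 0.74 (0.422 to 0.914), Itgam one of 0.645 (0.0974 to 2.74) and Itga4 one of 0.202 (0.0733 to 0.527). Their ranges overlapped: Itgae lay above Itgam in 9 of 18 libraries, and Itgam above Itga4 in 12 of 18. These levels rest on 7 to 31 reads per library for Itgae, 3 to 105 for Itgam and 5 to 55 for Itga4, so counting error is large for all 3. The alpha partners of Itgb7 were thus scarce in these libraries: its level was 99.2 times the sum of Itga4 and Itgae at the median (58.9 to 203). The other beta chains were set against the sum of their alpha partners among the members. The median ratio was 2.41 for Itgb2 over Itgal and Itgam (1.46 to 3.67) and 1.45 for Itgb3 over Itgav (1.02 to 1.83). For Itgb1 over Itga4, Itga6 and Itgav it was 1.83 (1.49 to 2.55). These are ratios of RNA levels, and surface protein was not measured. Partners outside the members, such as Itgad, Itgax and Itga2b, are not in these sums. The ratios also depend on the exon lengths used, 5901 bases for Itgb3 and 10744 for Itgav. In normalized counts Itgb3 was the lower of the pair in the scramble libraries, at a mean of 846 against 1129.

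**Figure D1:**
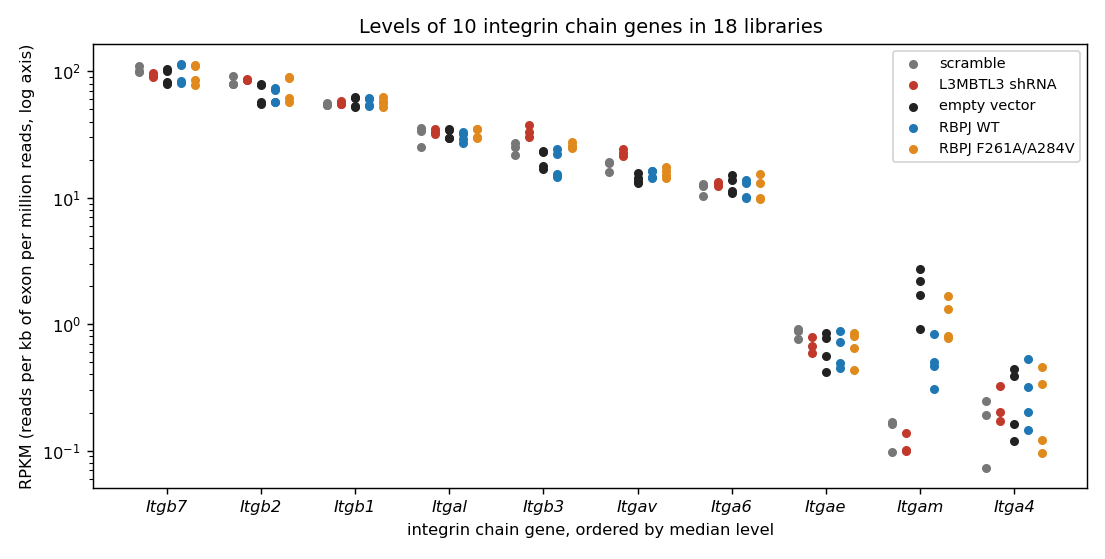
Level of each integrin chain in each of the 18 libraries, on a log axis of RPKM (reads per kb of exon, scaled to the library's total), coloured by group. Itgb7, Itgb2, Itgb1 and Itgal have the highest medians, while Itgae, Itgam and Itga4 lie below 3 in every library, and Itgam spreads most.

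In the rescue, part of the spread followed the divide between replicates. Itgb7 lay between 1077 and 1239 normalized counts in replicates 1 and 2 and between 1545 and 1737 in replicates 3 and 4. Itgb2 showed the same gap, at 844 to 987 and 1181 to 1504. Itga4 went the other way, from 22.2 to 37.5 in replicates 1 and 2 and from 7.35 to 15.3 in replicates 3 and 4. For 5 of the 10 members (Itgb7, Itgb2 and Itgb1, higher in replicates 3 and 4, and Itga4 and Itga6, lower there) the replicate pairs did not overlap over the 3 groups, and the same was true of 47.5% of the 11691 genes tested. On the log2 scale the gap was 0.46 to 0.57 for Itgb7, 0.47 to 0.68 for Itgb2 and 0.24 to 0.36 for Itgb1 in the 3 groups. It was -1.67 to -1.08 for Itga4, and the median size over all genes was 0.276. Itgb3 was the only member whose gap differed in sign between groups, at -0.31 with the empty vector, -0.51 with RBPJ WT and 0.14 with RBPJ F261A/A284V.

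**Figure D2:**
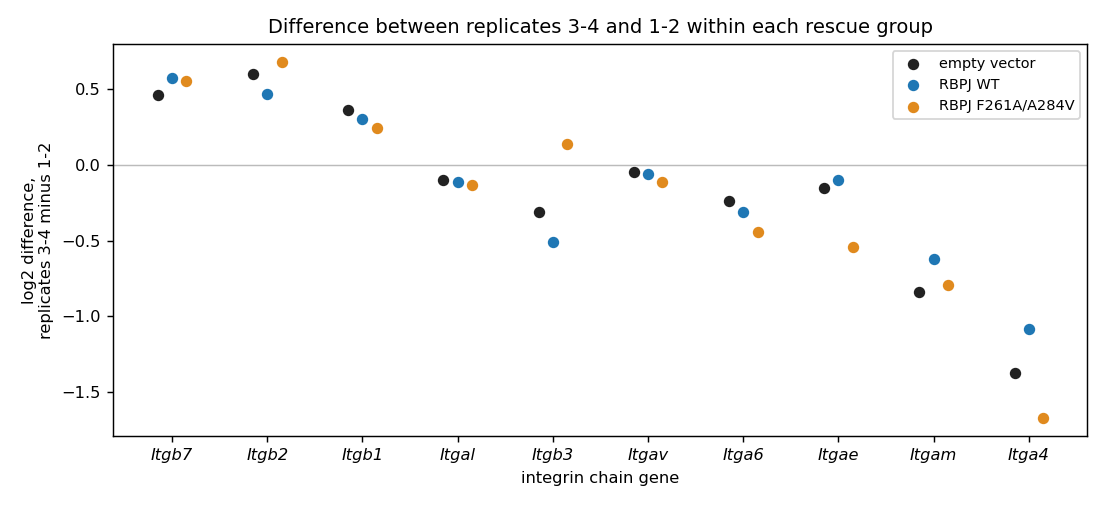
Log2 difference of the mean of replicates 3 and 4 less the mean of replicates 1 and 2 for each integrin chain, with 1 point per rescue group. The 3 groups lie close together for most chains, and Itgb3 has its F261A/A284V point above 0 and its other points below.

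The beta 2 family held the largest fold change among the members, that of Itgam. The 250 bases before the Itgam start (RefSeq, build GRCm38.p6, chr7:128062390-128062639, plus strand) are printed because this gene differed most with RBPJ. Capitals mark matches to GAGGAA, the core bound by the myeloid factor PU.1, and to GGGCGG, the SP1 core, each searched on both strands, so TTCCTC and CCGCCC are their reverse complements.
Itgam upstream: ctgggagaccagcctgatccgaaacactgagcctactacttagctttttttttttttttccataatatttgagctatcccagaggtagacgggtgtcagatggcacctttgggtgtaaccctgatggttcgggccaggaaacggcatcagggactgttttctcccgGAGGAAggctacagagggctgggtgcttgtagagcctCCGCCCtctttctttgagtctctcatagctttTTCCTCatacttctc
The window has a GC content of 49.6%. GAGGAA lies 84 to 79 bases before the start, CCGCCC 47 to 42 and TTCCTC 15 to 10. TGGGAA, the core of the sites RBPJ binds, has no match in this window. In windows of the same length, 21.6% of the 32851 promoters of the table hold TGGGAA, 23.3% hold GAGGAA and 32.7% hold GGGCGG, and no searched motif overlaps another in the Itgam window. Of the 5 members with an entry, which also include Itga4, Itgb1, Itgb7 and Itgav, 0 hold TGGGAA, 3 hold GAGGAA (Itgam, Itgav and Itgb1) and 3 hold GGGCGG (Itgam, Itga4 and Itgb1). TGTGGT, the core bound by RUNX factors, is in 14.0% of all promoters and in 1 of the 5, that of Itga4.

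Itgam was lower with RBPJ WT than with the empty vector, with a fold change of -1.74 on the log2(value + 1) scale, and its mean with RBPJ F261A/A284V lay between them. With the empty vector, Itgam read 68.8, 55.9, 24.6 and 47.4 normalized counts in replicates 1 to 4, a mean of 44.8 ± 19.0 (SD, n = 3). With RBPJ WT it read 13.0, 20.9, 12.7 and 8.43, a mean of 12.7 ± 4.25 (SD, n = 3). With RBPJ F261A/A284V it read 34.7, 42.5, 21.6 and 22.1, a mean of 33.0 ± 10.4 (SD, n = 3). Every RBPJ WT library lay below every empty vector library and every F261A/A284V library, while the empty vector and F261A/A284V libraries overlapped. The reads behind these values numbered 105, 82, 18 and 31 with the empty vector, 19, 33, 10 and 6 with RBPJ WT, and 39, 67, 14 and 15 with RBPJ F261A/A284V. In RNA from whole cultures, fewer cells with a transcript and less of it per cell cannot be told apart.

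For RBPJ WT against the empty vector, the Itgam difference (log2 fold change -1.74, SE 0.353) had a limma adjusted p of 0.105 and so was not called with group as the only term. When replicate number was added as a blocking term (called the paired fit below), Itgam fell, with an SE of 0.222 and an adjusted p of 5.17e-05. In the merged fit, which does not count near-identical libraries apart, Itgam also fell, by 1.69 with an adjusted p of 0.000406. Within replicates 3 and 4, where no library of these groups is one of a near-identical pair, Itgam fell by 1.63 (adjusted p = 0.0323). Within replicates 1 and 2 the difference was -1.85, but each group there is a near-identical pair and so 1 sample, and no p is given. In every other comparison within 2 replicates, 1 arm is such a pair, and the difference is given below without a p. The 4 differences between same-numbered libraries were -2.32, -1.38, -0.90 and -2.36. Over its 21 alternative settings, edgeR and DESeq2 among them, the fold change stayed between -2.03 and -1.49. The adjusted p (limma, edgeR or DESeq2) lay between 2.6e-05 and 0.371, with 8 settings under 0.05. These 8 include the fit within replicates 1 and 2, where each group is 1 sample, so its p is not read. Leaving out empty vector replicate 3, the lowest of its group, gave -2.03 with an adjusted p of 0.0401. Leaving out any other single library of these groups did not bring Itgam under 0.05.

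RBPJ F261A/A284V left Itgam 1.09 above RBPJ WT on the log2 scale (SE 0.353, limma adjusted p = 0.603). Itgam was higher with F261A/A284V in 4 of 4 same-numbered pairs, by 1.35, 0.99, 0.72 and 1.29, and this difference passed in the paired fit (adjusted p = 0.00508) and in the merged fit (1.05, adjusted p = 0.0368). It was 1.17 within replicates 1 and 2 and 1.0 within replicates 3 and 4. Over 21 alternatives its adjusted p ran from 0.00346 to 0.971, with 4 under 0.05, 1 of them within replicates 1 and 2, where RBPJ WT is 1 sample. Against the empty vector, F261A/A284V gave -0.65 (SE 0.353, adjusted p = 1; 0.231 in the paired fit), and none of its 21 alternatives passed.

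In the knockdown table, Itgam held 3 to 5 reads per library. It was not tested, because no library reached the value of 10 that the filter asks of at least 3 libraries. It read 2.81, 4.79 and 4.92 normalized counts in the scramble libraries, and with the L3MBTL3 shRNA label 2.88, 3.92 and 2.88. In RPKM, the means were 0.142 and 0.112 there, and 1.69 ± 0.782 with the empty vector, 0.481 ± 0.182 with RBPJ WT and 1.26 ± 0.447 with F261A/A284V (SD, n = 3 in each rescue group). The tables were normalized separately and come from different constructs and selections, so no test was made between them.

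Markers of other cells and of T cells were read beside Itgam. Of 12 myeloid markers, 11 were listed and 3 passed the filter on low values: Lyz2 (15.1 to 29.3 normalized counts over the 12 libraries), Cd68 (108 to 199) and Fcgr3 (48.5 to 101). The summed level of the list was 224 to 267 with the empty vector, 225 to 246 with RBPJ WT and 238 to 293 with F261A/A284V. These sums overlapped, but Cd68, a lysosomal protein abundant in macrophages, read 112 to 153 with the empty vector, 108 to 132 with RBPJ WT and 134 to 199 with F261A/A284V. The RBPJ WT and F261A/A284V libraries of Cd68 did not overlap, in the direction of Itgam, where 3.7% of all genes did not overlap in either direction. Cd68 rose between them in the paired fit (log2 fold change 0.47, limma adjusted p = 0.0102), where 4.74% of all genes were called. Its adjusted p was 0.0513 in the merged fit. The other 2 tested, Lyz2 and Fcgr3, went the other way in that comparison, and neither was called in the group-only, paired or merged fit. The other 8 stayed under 10 in every rescue library, with Csf1r, the M-CSF receptor, at most 4.59 and Spi1, which encodes PU.1, at most 3.08. Among the T cell markers, Cd28, a costimulatory receptor, fell with RBPJ WT against the empty vector in the paired fit (-0.78, adjusted p = 1.68e-07) and the merged fit (-0.81, adjusted p = 4.1e-06). Cd28 was higher with F261A/A284V than with RBPJ WT in the same fits (0.49, adjusted p = 7.57e-05; 0.51, adjusted p = 0.00163). Against the empty vector, Cd28 with F261A/A284V passed in the paired fit only (-0.30, adjusted p = 0.0434; 0.413 in the merged fit). The part of these markers in the Itgam values was not tested. B cell and stromal markers had no gene past the filter.

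Itgal and Itgb2, the chains of LFA-1, did not differ as Itgam did. Itgal read 1094 ± 46.4 with the empty vector, 1038 ± 53.0 with RBPJ WT and 1146 ± 68.5 with F261A/A284V (SD, n = 3 each), and none of the fits reported here called it. Itgb2, the beta partner of both Itgal and Itgam, read 844, 890, 1310 and 1319 with the empty vector, 887, 869, 1181 and 1244 with RBPJ WT, and 987, 874, 1504 and 1482 with F261A/A284V. The replicate divide is larger than any gap between groups here, and the groups overlap. F261A/A284V lay above RBPJ WT in 4 of 4 same-numbered pairs, by 0.19 on the log2 scale (SE 0.217, limma adjusted p = 1). That difference passed in the paired fit (SE 0.0499, adjusted p = 0.0282) but not in the merged fit (adjusted p = 0.169). It was 0.08 within replicates 1 and 2 and 0.30 within replicates 3 and 4. In the knockdown, Itgb2 read 1491 ± 179 with the scramble hairpin and 1505 ± 32.5 in the libraries labelled L3MBTL3 shRNA, and Itgal 1199 ± 184 and 1256 ± 51.2 (SD, n = 3 each). Neither difference passed (limma adjusted p = 0.897 for Itgb2 and 0.653 for Itgal).

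Itgav and Itgb3, the chains of the vitronectin receptor, were both higher in the libraries labelled L3MBTL3 shRNA. The 250 bases before the Itgav start (RefSeq, GRCm38.p6, chr2:83724147-83724396, plus strand) are shown for contrast with the Itgam window, with GAGGAA and its reverse complement TTCCTC in capitals.
Itgav upstream: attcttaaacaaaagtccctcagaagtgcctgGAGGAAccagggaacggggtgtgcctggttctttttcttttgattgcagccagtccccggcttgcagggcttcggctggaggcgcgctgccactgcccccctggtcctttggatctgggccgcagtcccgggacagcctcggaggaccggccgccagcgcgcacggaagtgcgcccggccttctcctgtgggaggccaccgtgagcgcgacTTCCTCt
This window has a GC content of 64.4%, against 49.6% for Itgam, and holds GAGGAA 218 to 213 and TTCCTC 7 to 2 bases before the start, with no match to the RBPJ, SP1 or RUNX cores. The table used has no entry for Itgb3.

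In the scramble libraries Itgb3 read 845, 728 and 965 normalized counts (846 ± 118, SD, n = 3), and in those labelled L3MBTL3 shRNA it read 1105, 1013 and 1294 (1137 ± 143, SD, n = 3). Itgav read 1178, 984 and 1224 (1129 ± 127) against 1377, 1323 and 1516 (1405 ± 99.5; SD, n = 3 each). For both genes every shRNA library lay above every scramble library, and replicate 3 was the highest of its group. Of all genes, 35.2% had groups that did not overlap, in either direction. The log2 fold change was 0.43 for Itgb3 (SE 0.117, limma adjusted p = 0.0768) and 0.32 for Itgav (SE 0.0908, adjusted p = 0.0817), so neither was called with group as the only term. Both rose in the paired fit, Itgb3 with an adjusted p of 0.000359 and Itgav with one of 0.00222. That fit called 22.2% of all genes, and 13.5% of all genes as higher. Same-numbered libraries differed by 0.39, 0.48 and 0.42 for Itgb3 and by 0.23, 0.43 and 0.31 for Itgav. Over 17 alternatives (limma, edgeR or DESeq2) the adjusted p ran from 3.72e-12 to 0.257 for Itgb3 and from 6.31e-09 to 0.268 for Itgav. For each gene 6 were under 0.05, and these include the fits without replicate 3 of either group. Those fits gave both lowest values, use fewer libraries and were added after the data were seen. Leaving out scramble replicate 3 gave 0.53 for Itgb3 (adjusted p = 0.0225) and 0.38 for Itgav (adjusted p = 0.0307). Leaving out any other single library brought neither gene under 0.05.

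**Figure D3:**
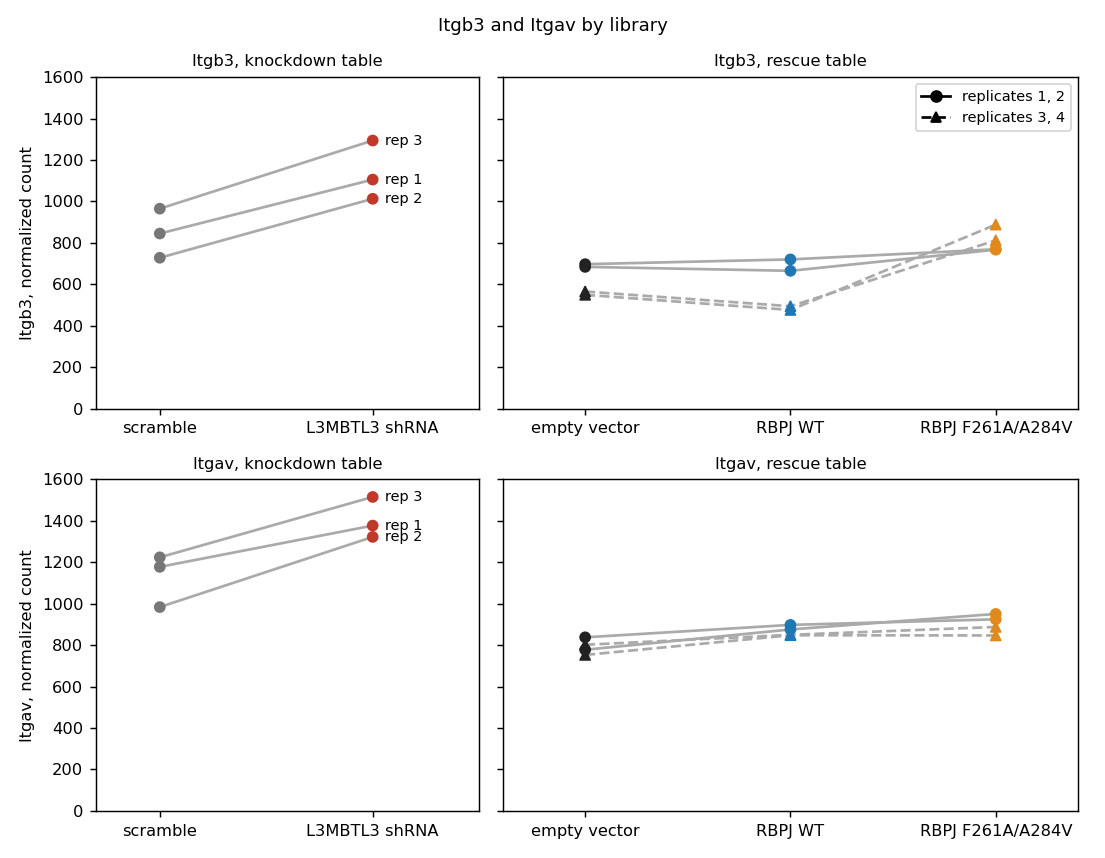
Normalized counts of Itgb3 and Itgav in each library of both experiments, by group, with a line joining libraries of the same replicate number (in the rescue, replicates 1 and 2 as circles, replicates 3 and 4 as triangles). Itgb3 is higher in the 3 libraries labelled L3MBTL3 shRNA (1013 to 1294) than in the 3 scramble libraries (728 to 965), and its F261A/A284V libraries (767 to 888) lie above all other rescue libraries.

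Markers of other cell types also differed between these libraries. The summed myeloid markers read 376 to 409 normalized counts in the scramble libraries and 254 to 322 in those labelled L3MBTL3 shRNA, with Cd14 and Cebpa at 0. Both myeloid markers tested fell in the paired fit, Cd68 by 0.38 (limma adjusted p = 0.00781) and Fcgr3 by 0.84 (adjusted p = 0.0404) on the log2 scale. That fit called 22.2% of all genes, 8.71% of them lower and 13.5% higher as shares of all genes. Tbx21 encodes the factor T-bet of NK and some T cells. It rose with group as the only term, where 3.32% of all genes were called, from 76.9 ± 5.04 to 116 ± 6.79 (SD, n = 3 each; 0.59, limma adjusted p = 0.0491). It was the only 1 of 5 NK and innate lymphoid markers past the filter, and Ncr1 and Eomes were at 0. The T cell markers Cd2 (0.56, limma adjusted p = 0.00644) and Bcl11b (0.47, adjusted p = 0.00139) rose in the paired fit. They were 2 of 11 tested, a share near that of all genes. The part of these markers in the Itgb3, Itgav and Itgb7 values was not tested. Of 5 platelet and megakaryocyte markers, Gp1ba (32.1 to 64.4) and Itga2b (20.2 to 40.9), the other alpha partner of Itgb3, passed the filter in both tables, and neither was called. Pf4 and Ppbp were at 0 in all 18 libraries.

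In the rescue, Itgb3 was higher with RBPJ F261A/A284V than in either other group, with larger differences in replicates 3 and 4 than in replicates 1 and 2. It read 684, 697, 565 and 549 with the empty vector (602 ± 77.5), 665, 720, 494 and 476 with RBPJ WT (554 ± 120), and 767, 769, 812 and 888 with F261A/A284V (795 ± 47.3; SD, n = 3 each). Every F261A/A284V library lay above every library of the other groups, which overlapped with each other. F261A/A284V against RBPJ WT gave 0.48 (SE 0.136, limma adjusted p = 0.403), and Itgb3 rose in the paired fit (adjusted p = 0.00173) and in the merged fit (0.46, adjusted p = 0.00651). The same difference was 0.15 within replicates 1 and 2 and 0.81 within replicates 3 and 4. Against the empty vector, F261A/A284V gave 0.38 (SE 0.136, adjusted p = 1). That difference passed in the paired fit (adjusted p = 0.0472) but not in the merged fit (0.33, adjusted p = 0.309). It was 0.15 within replicates 1 and 2 and 0.61 within replicates 3 and 4. RBPJ WT against the empty vector gave -0.10 (SE 0.136, adjusted p = 1), and no alternative passed.

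Whether the Itgb3 difference itself differed between the replicate pairs was tested with an interaction term, added after the values were seen. Over 12 libraries this test counts near-identical libraries apart, so the value from merged samples stands beside each. For F261A/A284V against RBPJ WT, replicates 3 and 4 exceeded replicates 1 and 2 by 0.66 (SE 0.0871, limma adjusted p = 0.000449 over 12 libraries), where 0.573% of all genes passed. With the 9 merged samples the value was again 0.66 (SE 0.137, adjusted p = 0.0648), where 0.0599% of genes passed. Against the empty vector it was 0.45 (SE 0.0871, adjusted p = 0.0404), where 0.128% of all genes passed, and 0.46 in the merged samples (SE 0.137, adjusted p = 1), where 0.0% passed. For RBPJ WT against the empty vector it was -0.20 (adjusted p = 1; 0.0171% of genes passed), and no other member passed this test in any comparison.

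Itgav differed less in the rescue. It read 838, 778, 753 and 802 with the empty vector (788 ± 30.2), 898, 876, 848 and 850 with RBPJ WT (862 ± 21.9), and 925, 951, 847 and 888 with F261A/A284V (914 ± 42.8; SD, n = 3 each). The empty vector libraries lay below all others, and the RBPJ WT and F261A/A284V libraries overlapped. F261A/A284V against the empty vector gave 0.19 (SE 0.0566, limma adjusted p = 1). This passed in the paired fit (adjusted p = 0.035) and not in the merged fit (adjusted p = 0.381). RBPJ WT against the empty vector gave 0.13 (SE 0.0566, adjusted p = 1; 0.115 in the paired fit). Both comparisons use the same 4 empty vector libraries.

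Itgb7, the most abundant chain, was lower in the libraries labelled L3MBTL3 shRNA. It read 1571, 1589 and 1836 normalized counts in the scramble libraries (1665 ± 148) and 1424, 1448 and 1555 in the shRNA libraries (1476 ± 69.5; SD, n = 3 each). The groups did not overlap for Itgb7, as for 35.2% of all genes. The log2 fold change was -0.17 (SE 0.0738, limma adjusted p = 0.191). Itgb7 fell in the paired fit (adjusted p = 0.0346), where 8.71% of all genes were called lower. Same-numbered libraries differed by -0.14, -0.13 and -0.24. Over 17 alternatives (limma, edgeR or DESeq2) the adjusted p ran from 0.00669 to 0.49, with 3 under 0.05. These include the fits without replicate 3 of either group, which gave the lowest value and were added after the data were seen. In the rescue, Itgb7 read 1419 ± 246, 1529 ± 323 and 1336 ± 319 with the empty vector, RBPJ WT and F261A/A284V (SD, n = 3 each), and none of its alternatives passed. Its F261A/A284V mean was the lowest, yet Itgb7 was above the empty vector in 3 of 4 same-numbered pairs.

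Its alpha partners rest on few reads. Itga4 read 19.7, 15.3 and 6.15 normalized counts in the scramble libraries and 26.0, 13.7 and 16.3 in those labelled L3MBTL3 shRNA (log2 fold change 0.50, SE 0.433, limma adjusted p = 0.474). Itgae read 23.4, 24.0 and 20.9 against 15.4, 17.7 and 21.1 (-0.33, SE 0.228, adjusted p = 0.387). The groups overlapped for both genes. In the rescue, Itgae read 15.4 ± 4.31, 15.0 ± 3.39 and 17.6 ± 3.55 (SD, n = 3 each), and Itga4 read 7.35 to 37.5 over the 12 libraries, where its replicate divide exceeded every difference between groups.

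Itgb1 and Itga6, which together form a laminin receptor, were not called in any comparison. Itgb1 read 1306 ± 61.0 in the scramble libraries and 1315 ± 45.1 in those labelled L3MBTL3 shRNA (log2 fold change 0.01, limma adjusted p = 0.924). Itga6 read 623 ± 56.9 and 668 ± 23.9 (0.10, adjusted p = 0.405; SD, n = 3 each). In the rescue, Itgb1 read 1283 ± 177, 1270 ± 148 and 1209 ± 142 and Itga6 587 ± 61.7, 535 ± 69.8 and 604 ± 106 with the empty vector, RBPJ WT and F261A/A284V (SD, n = 3 each).

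Counted over the members, no integrin chain was called with group as the only term in any of the 4 comparisons. In the knockdown, limma called 0 of 9 members tested, where 3.32% of all 11586 genes were called. At an unadjusted p under 0.05 there were 3 (Itgb7, Itgav and Itgb3) against 25.5% of all genes. EdgeR called 0, with 3 at an unadjusted p under 0.05, and 4.07% of all genes. DESeq2 called 2 (Itgav and Itgb3) and 5.77% of all genes. The paired fit called 3 against 22.2% of all genes, with 2 higher (13.5% of all genes) and 1 lower (8.71%). The groups did not overlap for the same 3 members, against 35.2% of all genes, a count near the background. The members' median log2 fold change was 0.079, beside -0.007 over all genes.

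For RBPJ WT against the empty vector, limma called 0 of 10 members and 0.248% of the 11691 genes tested, with 2 members (Itgam and Itgav) and 3.4% of genes at an unadjusted p under 0.05. EdgeR called 0, with 2 at an unadjusted p under 0.05, against 0.24% of genes, and DESeq2 called 1 (Itgam) against 0.513%. The paired fit called 1, Itgam, against 2.23% of genes, and the merged fit 1 against 1.52%. A term for the replicate divide on all 12 libraries called Itgam against 2.42% of genes, and it was also called within replicates 3 and 4 (1.26%). Within replicates 1 and 2 each group is 1 sample, so no count is given. Groups did not overlap for 2 members (Itgam and Itgav) against 3.34% of genes. The members' median was -0.043, beside -0.008 over all genes.

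For RBPJ F261A/A284V against the empty vector, limma called 0 of 10 members and 0.0171% of genes, with 2 (Itgav and Itgb3) and 2.05% at an unadjusted p under 0.05. EdgeR called 0, with 2 at an unadjusted p under 0.05, against 0.0171% of genes, and DESeq2 0 against 0.0599%. The paired fit called 2 (Itgav and Itgb3) against 0.65% of genes, and the groups did not overlap for these 2 against 1.92%. The term for the divide called the same 2 against 0.693% of genes. The merged fit called 0 members and 0.0941% of genes. Within replicates 1 and 2 the counts were 0 and 0.128%, and within replicates 3 and 4 they were 1 (Itgb3) and 1.15%. In each of these fits within 2 replicates, 1 arm is a near-identical pair (the empty vector, then F261A/A284V) and so 1 sample. Their counts are therefore not read as calls. The members' median was 0.049, beside 0.008 over all genes.

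For RBPJ F261A/A284V against RBPJ WT, limma called 0 of 10 members and 0.316% of genes, with 2 (Itgam and Itgb3) and 4.62% at an unadjusted p under 0.05. EdgeR called 0, with 2 at an unadjusted p under 0.05, against 0.248% of genes, and DESeq2 0 against 0.667%. The paired fit called 3 (Itgam, Itgb3 and Itgb2) against 4.74% of genes, the term for the divide the same 3 against 5.12%, and the merged fit 2 (Itgam and Itgb3) against 1.96%. Within replicates 1 and 2, 1 was called (Itgam) against 1.63% of genes, and within replicates 3 and 4, 2 (Itgb2 and Itgb3) against 7.05%. Here too 1 arm of each fit within 2 replicates is a near-identical pair (RBPJ WT, then F261A/A284V) and so 1 sample. The counts of these fits are therefore not read as calls. Groups did not overlap for Itgam and Itgb3, against 3.7% of genes. The members' median was 0.079, beside 0.014 over all genes. The 3 rescue comparisons share libraries pairwise, so their values are not independent of each other.

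**Figure D4:**
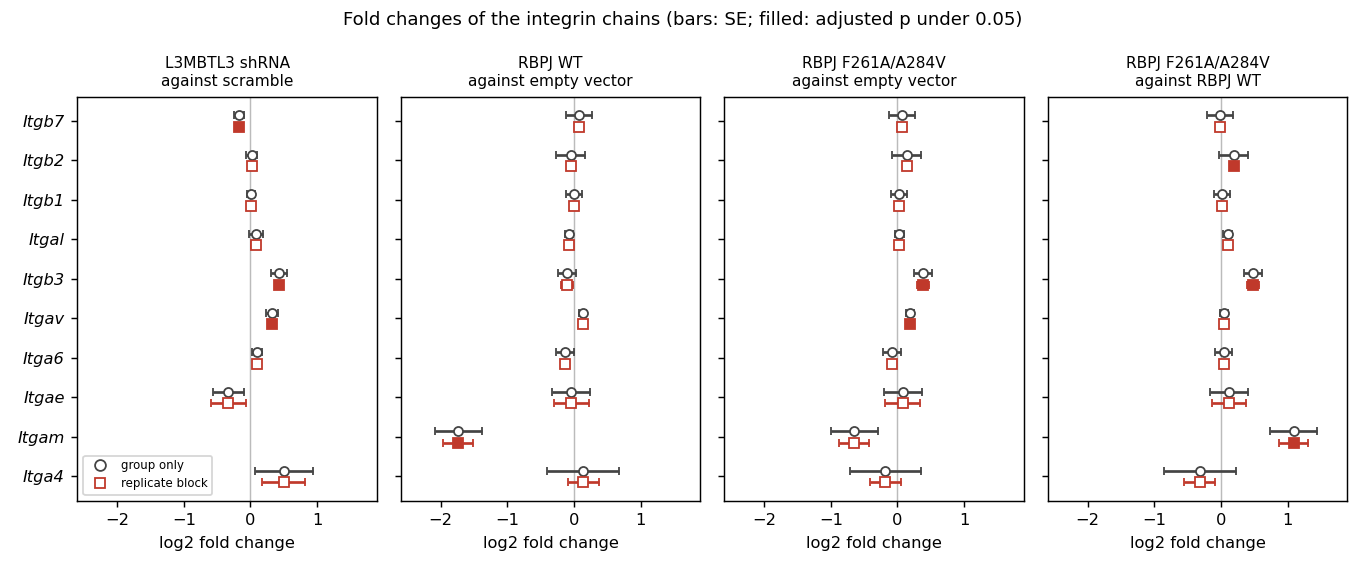
Log2 fold change of each integrin chain in the 4 comparisons with its SE as a bar, from the fit with group only (circles) and the paired fit (squares), filled where the limma adjusted p is under 0.05. No circle is filled, and the filled squares are Itgb7, Itgb3 and Itgav in the knockdown, Itgam for RBPJ WT, Itgb3 and Itgav for F261A/A284V against the empty vector, and Itgb2, Itgb3 and Itgam for F261A/A284V against RBPJ WT.

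Genes that work with these chains were read from lists of the pathway. Of 16 other integrin chains, 6 passed the filter in each table, and 0 were called in the group-only, paired or merged fit of any comparison. Itgax and Itgad, named after their values were seen, encode further alpha partners of Itgb2. Itgax stayed at or under 2.74 normalized counts in all 18 libraries, and Itgad read 9.11 ± 4.55, 12.4 ± 4.15 and 5.01 ± 1.57 with the empty vector, RBPJ WT and F261A/A284V (SD, n = 3 each). Of 44 genes for activation and cytoskeletal linkage, 37 were tested in the knockdown, and 2 rose, where 3.32% of all genes were called: Tln2, which encodes a talin that links beta chains to actin, and Stk4, which encodes the kinase MST1. Tln2 read 630 ± 70.2 in the scramble libraries and 866 ± 21.1 in those labelled L3MBTL3 shRNA (SD, n = 3 each; log2 fold change 0.47, limma adjusted p = 0.0348), and Stk4 read 1557 ± 31.4 and 1843 ± 54.1 (SD, n = 3 each; 0.24, adjusted p = 0.0491). The paired fit called 6 higher, adding Fyb, Vcl, Zyx and Ptk2b, and 2 lower, Lims1 and Slc3a2. These 8 of 37 stand beside 22.2% of all genes called in that fit (13.5% higher and 8.71% lower), a share near the background.

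In the rescue, 38 of these 44 were tested, and none was called with group as the only term. Fyb encodes ADAP, an adaptor that couples the T cell receptor to integrin activation. It fell with RBPJ WT against the empty vector in the paired fit (log2 fold change -0.55, limma adjusted p = 0.00278) and the merged fit (-0.57, adjusted p = 0.00747). Zyx, a focal adhesion protein, rose there in the paired fit but not in the merged fit (paired 0.30, adjusted p = 0.0399). It fell in the paired fit of F261A/A284V against RBPJ WT (-0.34, limma adjusted p = 0.00875) and did not pass in the merged fit (adjusted p = 0.12). For RBPJ WT against the empty vector, the paired fit called 1 of 38 higher and 1 lower, beside 2.23% of all genes. For F261A/A284V against RBPJ WT it called 1 of 38, beside 4.74% of all genes. Of 20 integrin ligands, 8 were tested in each table. Icam5, a ligand of LFA-1, rose in the libraries labelled L3MBTL3 shRNA, from 51.4 ± 15.3 to 117 ± 12.2 normalized counts (SD, n = 3 each; 1.22, adjusted p = 0.039). That was 1 of 8, where 3.32% of all genes were called. Besides Icam5, the paired fit there called Icam4 higher (0.43, limma adjusted p = 0.0362). It called Spp1, which encodes osteopontin, a ligand of alpha v beta 3, lower (-0.45, adjusted p = 0.00257). These 2 higher and 1 lower of 8 stand beside 13.5% and 8.71% of all genes. In the rescue, Lamc1, a laminin chain, was called by the paired fit for F261A/A284V against the empty vector (0.81, adjusted p = 0.00672), and not by the merged fit (0.72, adjusted p = 0.107). Pecam1 was called for F261A/A284V against RBPJ WT in the paired fit (-0.28, limma adjusted p = 0.00148) and the merged fit (adjusted p = 0.013). Each was 1 of 8 tested, beside 0.65% of all genes in the paired fit for Lamc1 and 4.74% for Pecam1.

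Genes whose values ran most like those of the members were named by Pearson's r of log2(value + 1) across libraries, as a description. In the 6 knockdown libraries, Itgb3 was closest to Pear1 (0.995), Phf3 (0.993) and Mtmr2 (0.992). Itgav was closest there to Cic (0.996), Zfp219 (0.991) and Ptprj (0.99), and Itgb7 to Smc5 (0.998), Psma5 (0.997) and Gm7334 (0.996). Each was the highest among 11585 other genes over only 6 libraries, and no p is given. In the 12 rescue libraries, after the mean of each pair of replicate numbers was removed, Itgam was closest to Akap6 (0.967), Phf11a (0.944) and Scin (0.941). Itgb3 was closest to Gm15107 (0.981), Tmem154 (0.97) and Abcg3 (0.969), and Itgb2 to Gfi1 (0.975), Stat3 (0.969) and Por (0.968). Itgav was closest to Rbm33 (0.899), Guf1 (0.895) and Braf (0.893). These libraries share groups, depths and near-identical pairs, which enter every r.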

How the data were processed

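RNA sequencing of 18 libraries was used, 6 in the knockdown table and 12 in the rescue table. Per the labels' protocols, libraries were stranded and made from ribosome-depleted total RNA. TopHat2 2.1.1, DESeq2 1.24.0 and mm9, a mouse genome build, are named per the submitters' processing notes. The counting tool with its annotation and strand setting, and whether duplicates were removed, were not given in the sources used here. What the authors deposited is a signal per gene: gene counts divided by 1 size factor per library, since 100% of the values were whole multiples of 1 read within 0.1 read. The tables were normalized separately, so tests stayed within a table.

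Genes with a value of at least 10 in at least 3 (knockdown) or 4 (rescue) libraries were tested with limma 3.58.1 (limma-trend, R 4.3.3, 2-sided) on log2(value + 1), with no term besides group and the 12 rescue libraries in 1 fit. This scale understates fold changes of low genes. Benjamini-Hochberg adjustment ran over all genes tested (11586 and 11691), and a gene was called at an adjusted p under 0.05. Every adjusted p is from limma unless edgeR (4.0.16) or DESeq2 (1.42.0) is named, which were run on the recovered reads. Ranges and counts over alternatives include both. Levels between genes used exon lengths from GENCODE vM21 (GRCm38), not the annotation of mm9, and reads of overlapping genes could not be told apart.

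No label states separate cultures for the replicates, so a p-value here measures the spread between these samples only, and that spread may be technical. Groups share replicate numbers. Deviations from the group means of same-numbered libraries correlated at 0.24 to 0.539 across genes in the knockdown (3 pairs) and at 0.55 to 0.815 in the rescue (12 pairs). Replicate number was therefore used as the block of the paired fit. In the knockdown, replicates 1 and 2 of different number correlated at 0.104 to 0.332, and replicate 3 with the others at -0.469 to -0.223. In the rescue, libraries of different number on the same side of the divide between replicates 1 and 2 and replicates 3 and 4 correlated at 0.559 to 0.832, so the numbers pair nothing beyond that divide. The paired fit there also counts near-identical libraries apart, which the merged fit does not. No label names a batch for the divide.

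The members and the gene lists were chosen with earlier results of these data known. The genes named outside the members are those of the pathway and marker lists called in the group-only, paired or merged fit, the 3 genes with the highest r to each member called in any of these fits, and, as levels only, markers that bear on a named cell type, Itgax and Itgad.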

Additional observations from a re-analysis of the deposited data

Results flagged for a closer look

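Itgb3 was flagged in 2 comparisons, because a test of the difference itself found that its effect differed between pairs of replicates under the same contrast. The log2 fold change of RBPJ F261A/A284V against RBPJ WT was larger by 0.66 in replicates 3 and 4 than in replicates 1 and 2 (limma adjusted p = 0.000449 over 12 libraries; 0.0648 with near-identical libraries merged). That of RBPJ F261A/A284V against the empty vector was larger by 0.45 (adjusted p = 0.0404; 1 with libraries merged). Replicates 3 and 4 of F261A/A284V are themselves one of the near-identical pairs, and these comparisons share the F261A/A284V libraries. In the 3 rescue groups, the 4 libraries of each of the 10 members were also tested for a library far from the others, and 0 of these 30 sets were flagged. Where replicates 1 and 2 stand apart from replicates 3 and 4, this test can hardly flag a single library, so the 0 says little there.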

How the results depend on the processing

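The number of members called was 0 in each comparison with group as the only term. In the knockdown, where 3.32% of all genes were called, it was 2 with quantile scaling (7.75% of all genes), 2 with DESeq2 (5.77%), 3 with the replicate block (22.2%), 3 without replicate 3 of either group (16.6%) and 3 with both choices together (27.4%). The settings without replicate 3 of either group were added after seeing the data. The calls over all genes rose with those of the members. Leaving out 1 replicate gave 0 to 2, with 2 (Itgav and Itgb3) and 8.88% of all genes without scramble replicate 3. For RBPJ WT against the empty vector it was 1 with quantile scaling (0.299% of all genes), DESeq2, the replicate block, merged libraries, a term for replicates 1 and 2 against 3 and 4, and within replicates 3 and 4. Leaving out 1 replicate gave 0 to 1, with 1 and 0.154% of all genes without empty vector replicate 3. For F261A/A284V against the empty vector it was 2 with the block and 2 with the term. For F261A/A284V against RBPJ WT it was 3 with the block, 2 with merged libraries and 3 with the term. Leaving out 1 replicate gave 0 in both F261A/A284V comparisons. Counts from the other fits within 2 replicates, which treat a near-identical pair as 2 libraries, are not read as calls. The cause was not tested. The replicate block changed no other call among the members. Other settings (pseudocounts of 0.5 and 5, no filter, a minimum of 50, TMM scaling, edgeR, only the groups compared) left the counts at 0. Of 802 values of single members under alternatives, those of all fits within 2 replicates included, 39 newly passed the threshold, 0 lost a call and 0 called values changed sign. Depth limits Itga4, Itgae and Itgam, with as few as 3 to 7 reads in a library.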
